A study of Homo sapiens with 3 samples.

Results

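Kidney development genes were examined in a list of sites bound by MECOM, a zinc finger transcription factor also called EVI1, in the HEK293T line, which derives from human embryonic kidney. The set named 34 genes, and a gene counted as a hit when the deposited annotation gave it at least 1 peak. This held for 7 genes (PAX8, SALL1, EMX2, NOTCH2, TBX18, IRX3 and TFAP2A), which received 8 of the 3462 peaks in the list, and the other 27 genes received none. Bound DNA was recovered with an antibody to the AM tag, a short peptide fused to MECOM (chromatin immunoprecipitation with sequencing, ChIP-seq). The series held 3 libraries, each the only one of its group, from cells given the empty pMYS-IG vector, tagged wild-type MECOM or tagged MECOM with the R750W change. The peaks come from the wild-type MECOM library, so no value has a replicate and no groups were compared. Neither the vector nor the R750W library was analysed here, so background binding of the tag antibody is unknown. MECOM was introduced from a vector, so the sites are those of added protein. A peak list holds no expression values, so whether these cells express the kidney genes was not examined.

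The mammalian kidney forms from the intermediate mesoderm, where the transcription factors PAX2, PAX8, LHX1 and OSR1 set up the nephric lineage. An epithelial tube, the ureteric bud, grows in response to GDNF acting on the receptor RET and its partner GFRA1. Around its tips, nephron progenitors marked by SIX2, CITED1, EYA1, SALL1 and WT1 respond to WNT9B and WNT4, become epithelial and are patterned by Notch signalling and segment factors into podocytes and tubules. MECOM itself is expressed in the distal part of the developing nephron.

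The following stretches of DNA come before gene starts under or near these peaks. All are from RefSeq on GRCh38.p14, read 5′ to 3′ along the named gene. The first is the 250 bases before the start of LINC02966, a long non-coding RNA gene under the peak given to PAX8 (chr2:113324788-113325037, + strand), with the 213 bases inside the peak in capitals. The second is the outermost 30 of the 250 bases before the RefSeq start of EMX2 (chr10:117542496-117542525, + strand). They lie wholly inside a peak and do not reach the start. The third is the 250 bases before the start of NOTCH2 (chr1:120069663-120069912, − strand), which lie next to its peak but outside it. In the EMX2 and NOTCH2 stretches capitals mark GGGCGG, read on either strand, the GC box known to bind SP1. NOTCH2 holds another GGGCGG that is not printed, 43 to 48 bp after its start and inside its peak. LINC02966 holds 2 on the opposite strand, unmarked here. They lie 59 to 54 and 45 to 40 bp before its start, inside the peak.
LINC02966: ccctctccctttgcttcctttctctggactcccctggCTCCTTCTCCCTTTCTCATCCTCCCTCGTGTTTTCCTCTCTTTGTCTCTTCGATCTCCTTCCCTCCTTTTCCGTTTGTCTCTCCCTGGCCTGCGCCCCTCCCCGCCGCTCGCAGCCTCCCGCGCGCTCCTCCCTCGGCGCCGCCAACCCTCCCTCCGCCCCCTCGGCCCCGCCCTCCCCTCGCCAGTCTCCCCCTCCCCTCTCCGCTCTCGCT
EMX2: agcccggCCGCCCggtGGGCGGcagaaggc
NOTCH2: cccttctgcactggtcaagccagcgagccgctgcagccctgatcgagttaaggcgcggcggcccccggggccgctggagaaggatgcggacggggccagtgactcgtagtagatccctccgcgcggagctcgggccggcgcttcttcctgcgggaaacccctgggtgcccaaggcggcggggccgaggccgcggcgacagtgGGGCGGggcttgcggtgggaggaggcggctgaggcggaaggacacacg

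The share of kidney development genes with an assigned peak was 7 of 34 (20.6%), and across all 20037 protein-coding genes it was 9.93%. The genes were chosen with earlier results of these data known, so the 2 shares are given side by side without a test. Among peaks with a q of at most 1e-05 the counts were 3 of 34 (8.82%) and 5.52%, and among peaks at or above the median fold 2 of 34 (5.88%) and 5.03%. By peak, 3 of the 8 reached that q, and 54.8% of all peaks did. Among these settings the gap to the background, in percentage points, was thus widest with all peaks counted. At the higher folds the set lay near the background. Gene length was similar, with a median of 25.1 kb for the 34 genes and 24.1 kb for protein-coding genes.

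Fold enrichment, the authors' value for fragments at a peak over the local background, ran from 2.83 to 5.86 at the 8 peaks with a median of 4.63. Over all 3462 peaks the median was 4.82, with quartiles of 4.06 and 5.67. Fragment numbers given for a peak are the count recovered from its fold and p-value, not a count over its whole width. Each fold is followed by its 95% interval, the exact Poisson interval for the fragment count over a fixed background. It covers counting error of the fragments only, and error in the background is left out. With the background fixed, the intervals held the list median at 7 of the 8 peaks, and that of NOTCH2 lay wholly below it. The intervals overlapped in each of the 28 pairs of these peaks. Overlap alone does not decide whether peaks differ, and no pair was tested, so no order by fold is claimed.

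**Figure D1:**
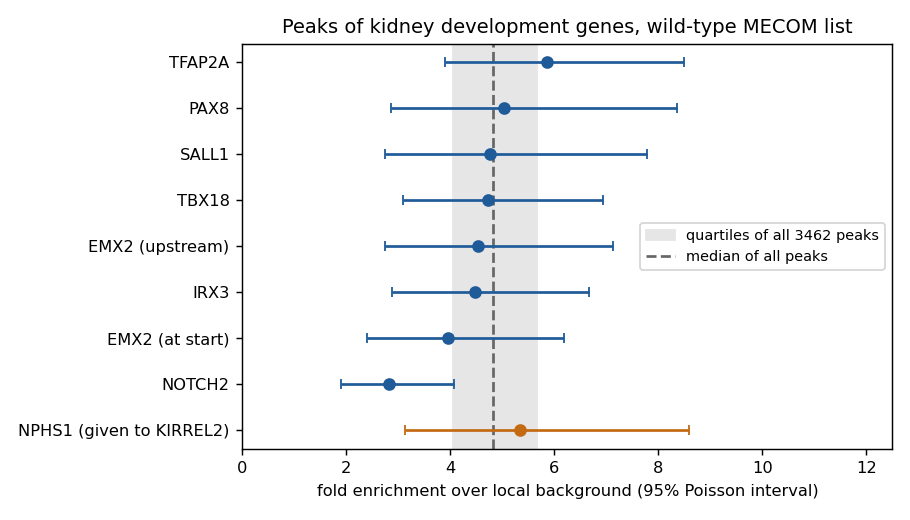
Fold enrichment (points, horizontal axis) with exact 95% Poisson intervals (bars), which hold the background fixed. Shown are the 8 peaks given to kidney development genes and, in orange, the peak inside NPHS1 that was given to KIRREL2. The grey band spans the quartiles of all 3462 peaks and the dashed line their median of 4.82, and only the NOTCH2 interval, 1.90 to 4.07, stays below that line.

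Of the 12 early kidney and nephron progenitor factors, PAX8, SALL1 and EMX2 were assigned a peak. SALL1, a zinc finger factor of nephron progenitors mutated in Townes-Brocks syndrome, had a peak on chromosome 16 from 51152129 to 51152520. It rested on 14 fragments over a background of 2.15, a fold of 4.76 (2.75 to 7.78). The deposited annotation placed it 762 bp upstream of the gene, whose start it put at 51151367. RefSeq starts SALL1 967 bp further out, at 51152334, and by that start the peak lay across the beginning of the gene.

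EMX2, a homeobox factor needed for ureteric bud growth and also for the cerebral cortex, was the member with more than 1 peak. Across protein-coding genes 0.759% had more than 1. The peak at its start, on chromosome 10 from 117542334 to 117542607, held 17 fragments over a background of 3.56, a fold of 3.95 (2.39 to 6.19). The second peak, from 117541541 to 117541885, held 17 fragments over 2.96, a fold of 4.54 (2.75 to 7.12). The pair had overlapping intervals and were separated by 448 bp, and both lay inside EMX2OS, the antisense RNA gene that runs through the EMX2 start. The deposited start, 117542444, fell under the first of these peaks, whereas the RefSeq start, 117542746, was 139 bp beyond its end. Strand plays no part in a peak, so the EMX2 and EMX2OS sides of this region cannot be told apart. Of this peak, 112 bp enter the RefSeq promoter window of EMX2, and the 30 bases printed above are the first of them. They hold GGGCGG on both strands within 15 bases.

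PAX8, the paired-box factor that acts with PAX2 in the nephric lineage, had the most distant of the 8 peaks. That peak, on chromosome 2 from 113324825 to 113325538, began 45875 bp before the deposited start, with 13 fragments over a background of 1.78 and a fold of 5.04 (2.85 to 8.36). It had the fewest fragments of the 8. Among all peaks with an annotated gene, 19.0% began over 10000 bp from its start. RefSeq places the starts of 2 long non-coding RNA genes under this peak. LINC02966 starts on the + strand at 113325038, and LOC105373567 starts on the − strand at 113325536, 2 bp inside the peak's end. The peak therefore covered the starts of an overlapping pair transcribed on opposite strands, and its link to PAX8 rests on the deposited assignment alone.

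The remaining 9 early factors had no assigned peak. The closest peak to PAX2, the partner of PAX8, lay 78.9 kb away at 5.80-fold. That of SIX4, a homeobox gene, lay 51.9 kb away. SALL4, related to SALL1, was 219 kb and WT1, the Wilms tumour gene, 394 kb from a peak. EYA1, a cofactor of SIX2 and its relatives, was at 589 kb, SIX2 at 643 kb, OSR1 at 693 kb, CITED1 at 698 kb and LHX1 at 2210 kb. Of the nephron progenitor markers named above, SALL1 thus had a peak at its RefSeq start, while WT1, EYA1, SIX2 and CITED1 lay 394 to 698 kb from one.

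The ureteric bud signals had no assigned peak. GDNF, the ligand, and GFRA1, its co-receptor, lay 1120 and 1100 kb from the nearest peak. RET, the receptor tyrosine kinase, had a peak 8.15 kb beyond the gene, but that peak began 18 bp inside CSGALNACT2, to which it was assigned (5.80-fold, 3.73 to 8.65). None of the 5 WNT and FGF genes had one either. FGF8, a ligand for nephron progenitor survival, lay 37.2 kb from a peak assigned to OGA, and WNT9B, the inducing signal of the ureteric bud, 213 kb from a peak. The gaps of WNT11, WNT4 and the receptor gene FGFR2 ran from 370 to 776 kb.

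Of the Notch pair, mutated in Alagille syndrome, the ligand gene JAG1 had its closest peak 204 kb away and the receptor gene NOTCH2 had a peak at its start. That peak, on chromosome 1 from 120069188 to 120069633, held 27 fragments, the most of the 8, over a background of 8.89, also the highest of the 8. Its fold of 2.83 (1.90 to 4.07) ranked 3416 of the 3462 peaks. Its overlap with the promoter window, counted from 250 bp before to 50 bp after the RefSeq start, was 21 bp and all of it lay after the start, at 120069662. A divergent non-coding gene, LOC101929178, starts 166 bp away on the + strand, and 56 bp of its promoter window were under the peak. NOTCH2 has partial copies on the same chromosome, the NOTCH2NL genes. Of these, NOTCH2NLC held 2 peaks of 6.82-fold (4.39 to 10.2) and 7.79-fold (4.90 to 11.8), both assigned to NBPF19, NOTCH2NLB had 1 of 3.24-fold, assigned to NBPF14, and NOTCH2NLA and NOTCH2NLR had none within 1000 bp. The sources used here do not say how reads matching several copies were placed, so the NOTCH2 value is uncertain.

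**Figure D2:**
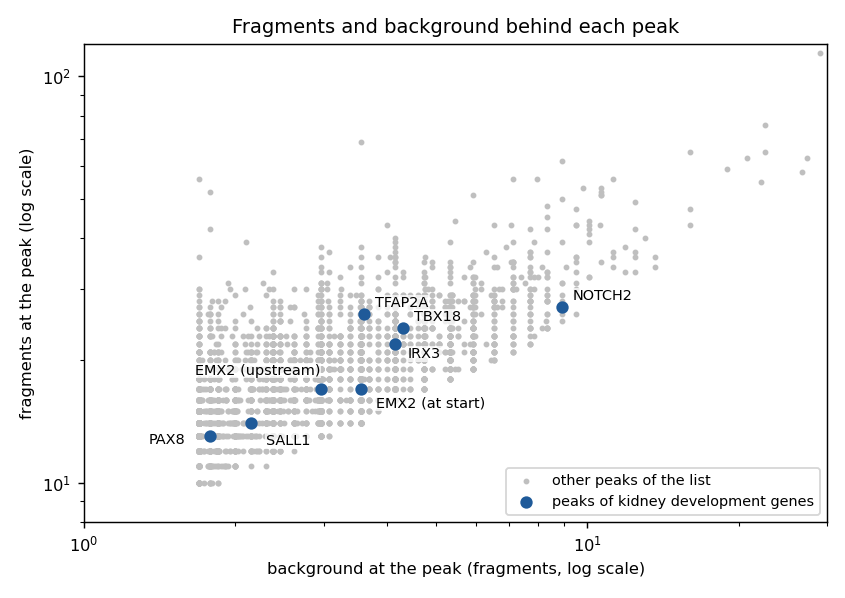
Fragments at a peak (vertical axis, log scale) against the background there (horizontal axis, fragments, log scale), with peaks of kidney development genes in blue and other peaks in grey. Only the 3459 peaks with recovered fragments were used, and 17 of them fall outside the axes. NOTCH2 had 27 fragments over a background of 8.89 and PAX8 13 over 1.78, so the blue points spread along the list rather than along its upper edge.

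Of the 5 stromal, ureter and mesoderm factors, TBX18 alone was assigned a peak. TBX18, a T-box factor of the mesenchyme that forms the ureter wall, had it on chromosome 6 from 84762361 to 84762747, inside the gene. It held 24 fragments over a background of 4.30, a fold of 4.72 (3.09 to 6.93). The nearer edge of the peak was 1851 bp past the RefSeq start, and the whole peak lay also within LOC124901353, a non-coding gene that overlaps the start of TBX18. FOXC2, a forkhead factor of mesoderm, had a peak 11.3 kb away that was assigned to the non-coding gene FLJ30679 and reached 5.56-fold (3.21 to 9.08). FOXC1 lay 220 kb and FOXD1, the marker of renal stroma, 490 kb from a peak. GATA3, a factor of the nephric and collecting ducts, lay 2350 kb from one, the widest gap of the 34 genes.

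Among the 7 segment factors and podocyte genes, TFAP2A and IRX3 were assigned a peak and NPHS1 held one that went to another gene. TFAP2A encodes AP-2 alpha, a factor of neural crest and epithelia related to TFAP2B of the distal nephron. Its peak, on chromosome 6 from 10414063 to 10415216, was the highest and the widest of the 8. It held 26 fragments over a background of 3.61, a fold of 5.86 (3.90 to 8.48), and ranked 751 by fold and 391 by q in the list. It lay inside the gene, 4443 bp past the main start, and 1672 bp before a second RefSeq start at 10412391. The peak also lay wholly within TFAP2A-AS1, a non-coding gene read from the opposite strand. TFAP2B was 1510 kb from any peak.

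IRX3, a homeobox factor of the middle nephron segments, had a peak across its start on chromosome 16 from 54285998 to 54287141. It held 22 fragments over a background of 4.15, a fold of 4.47 (2.87 to 6.66). The deposited and the RefSeq start differed by 24 bp and both were under the peak, which ran from 354 bp before to 789 bp after the RefSeq start. IRX5 and IRX6, its neighbours in the IRX cluster of chromosome 16, also had a peak each, at 3.31-fold (2.09 to 5.03) and 3.30-fold (1.97 to 5.24). IRX1, IRX2 and IRX4, which form the other IRX cluster on chromosome 5, had none, and IRX2 and IRX1 lay 627 and 1490 kb from the nearest peak. The chromosome 16 cluster was singled out after its values were seen.

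NPHS1 encodes nephrin, the main protein of the podocyte slit diaphragm. A peak inside the gene, on chromosome 19 from 35845385 to 35845708, was given by the deposited table to KIRREL2, a gene of a nephrin-related protein, as lying 10476 bp upstream. The peak held 15 fragments and had a fold of 5.34 (3.14 to 8.59). It lay 6796 bp from the RefSeq start of NPHS1, closer than to the deposited start of KIRREL2. HNF4A, a factor of the proximal tubule, had its closest peak 44.6 kb away, assigned to FITM2.

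**Figure D3:**
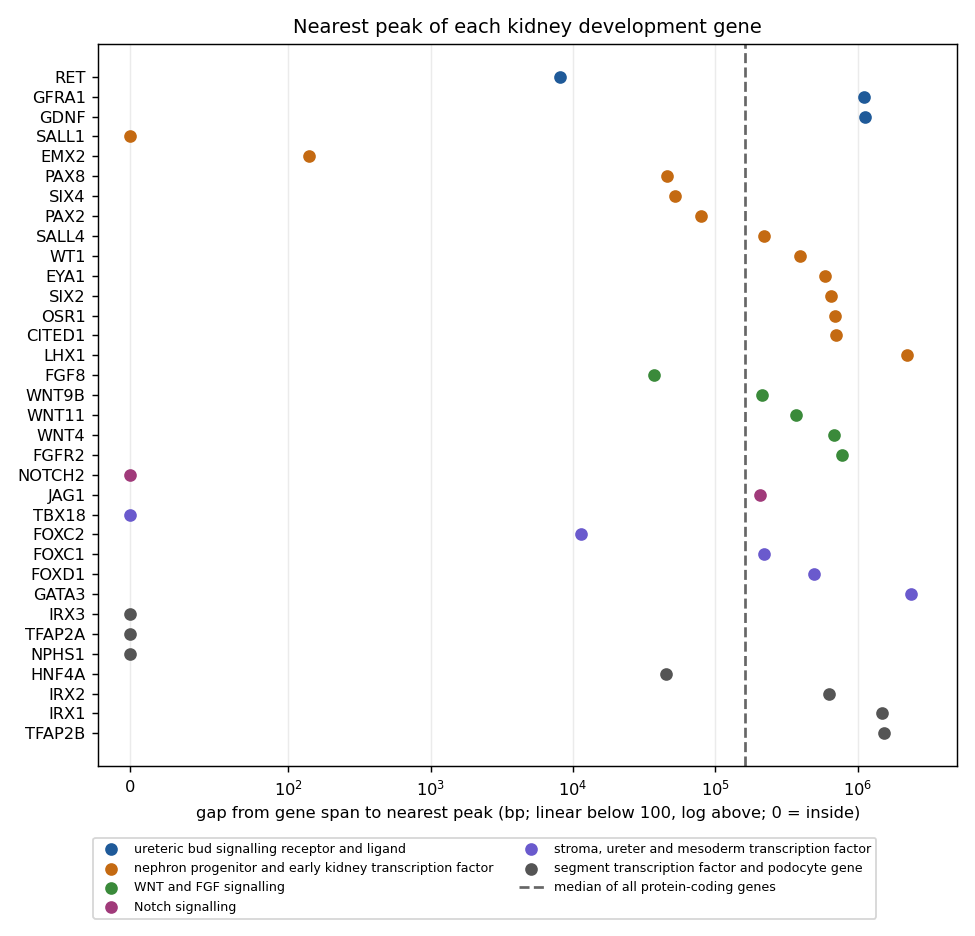
Gap in bp between each of the 34 genes (rows, coloured by role) and the closest peak, with genes that overlap a peak at 0; the axis is linear below 100 bp and logarithmic above, and the dashed line marks 162 kb, the median of all protein-coding genes. A group of 6 genes sits at 0, EMX2 at 139 bp, and GATA3 and LHX1 lie farthest, at 2350 and 2210 kb.

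By gene span, with RefSeq positions and 1000 bp added at each end, 7 of the 34 genes (20.6%) held a peak, and 13.7% of protein-coding genes did. These were 6 of the 7 genes above, without PAX8, and NPHS1. Within 100 kb of a peak lay 14 of the 34 genes (41.2%), close to the 39.9% of protein-coding genes. Within 500 kb lay 21 (61.8%), and 75.8% of protein-coding genes. The median gap was 220 kb for the set and 162 kb for protein-coding genes.

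Peaks of these genes met gene starts in ways that depended on the annotation. By the deposited classes, 3 of the 8 peaks lay across the assigned start (EMX2, IRX3 and NOTCH2), and 19.7% of all peaks with a gene did. A further 3 lay upstream and 2 inside the gene, and 40.4% of all peaks lay inside. By distance, 5 of 8 began within 1000 bp of the start, as did 55.7% of all. With the RefSeq starts, 2 of 8 overlapped the start, those of SALL1 and IRX3, and the peaks of NOTCH2 and EMX2 ended 29 and 139 bp away from it. The RefSeq start was taken as the outer end of the gene span. The share of all peaks over a RefSeq start is not given, as the 19.7% is by deposited starts. Over genes, 3 of 34 (8.82%) had a peak across the deposited start, and 2.38% of protein-coding genes did.

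**Figure D4:**
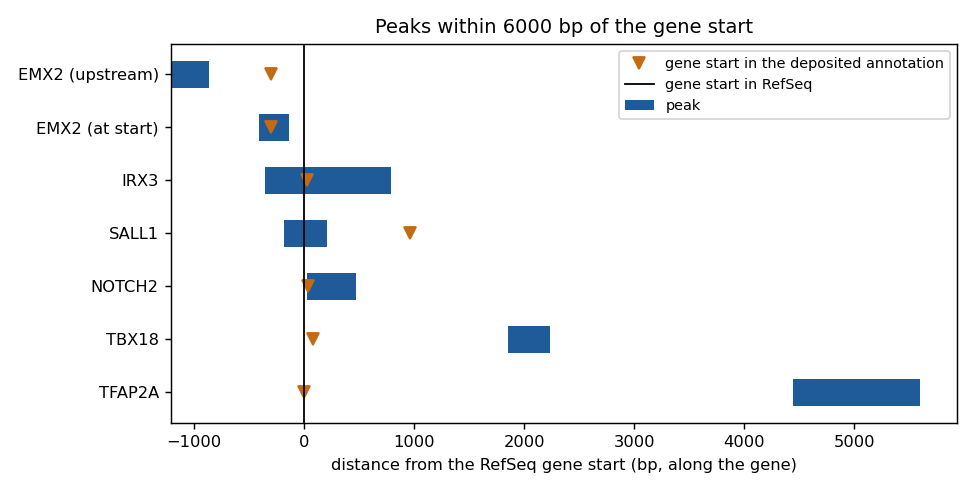
Extent of 7 peaks (bars) along the gene, in bp from the RefSeq start (vertical line), with the start of the deposited annotation as a triangle; the PAX8 peak lies outside this range. The 2 starts differ by 967 bp for SALL1 and 302 bp for EMX2, and only the IRX3 peak covers both.

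Promoter sequences were present for 25 of the 34 genes, those of EYA1, FGF8, FOXC2, IRX3, LHX1, OSR1, SALL1, SALL4 and WNT11 being the exceptions. SALL1 and IRX3, the genes whose peaks overlapped the RefSeq start, were therefore not searched. A peak touched the window of EMX2 (112 bp) and NOTCH2 (21 bp), 2 of 25, beside 6.97% of 15843 protein-coding genes. The windows were searched on both strands for exact matches to AGATAA and CAAGATAA, which contains it and is part of the sequence known for the first zinc finger domain of MECOM, and to GATGAG, known for the second. The EMX2 and NOTCH2 windows held neither AGATAA nor GATGAG. The LINC02966 window under the PAX8 peak held 1 GATGAG, on the opposite strand from 199 to 194 bp before the start and inside the peak. AGATAA was found for FGFR2, HNF4A and SIX2, 3 of 25 genes and 6.12% of their 49 windows, beside 10.3% of 35116 windows of all genes. GATGAG was found for GFRA1 and IRX2, in 6.12% of the windows, and 4223 of the 35116 windows of all genes held it. CAAGATAA was in none of the 49 windows and in 0.626% of all. Thus EMX2 and NOTCH2, the only searched kidney genes with a window under a peak, held neither MECOM-type sequence there. This says only that these letters were not in this window, and nothing of SALL1 and IRX3. Of the other motifs, GGGCGG was in the windows of 20 genes (53.1% of windows, 45.0% of all) and CCAAT in those of 15 (36.7% and 34.6%). CCGGAA, the ETS core, was found for 3 genes (8.16% and 17.2%), TGANTCA, the AP-1 site, for 3 (6.12% and 7.71%), CACGTG, the E-box, for 2 (4.08% and 7.26%), and TATAAA for 4 (12.2% and 11.5%).

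A further 121 genes in 5 lists gave the surroundings of the set, and 18 of them (14.9%) were assigned a peak, beside the 9.93% of protein-coding genes. Among other early kidney transcription factors it was 8 of 35 (22.9%), among them EYA4, a relative of EYA1, at 5.27-fold. DACH1, a partner of the EYA proteins, reached 4.42-fold with a peak across its start. Among ureteric bud branching genes it was 5 of 33 (15.2%), with FREM2, a basement membrane gene mutated in Fraser syndrome, at 5.26-fold. GREB1L (4.90), BMP7, a survival signal of nephron progenitors (4.82), and ROBO1 (4.75) followed. Among WNT, FGF and Notch partners it was 3 of 26 (11.5%), where the Notch target HEY1 had a peak inside the gene of 7.71-fold (5.10 to 11.2) with 25 fragments, and HEYL and LEF1 reached 4.01 and 4.00. Among nephron segment markers it was 2 of 22 (9.09%), LRP2, the proximal tubule receptor megalin, at 6.05-fold and PKD2 at 3.29. None of 5 neuronal genes sometimes linked to HEK293 cells (NEFL, NEFM, NEFH, INA and DBH) was assigned a peak. The segment markers thus lay near the share of all protein-coding genes, and differences between lists were not tested. With a q of at most 1e-05, 7 of the 121 genes had a peak, beside 5.52% of protein-coding genes. At or above the median fold it was again 7 of 121, beside 5.03%.

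**Figure D5:**
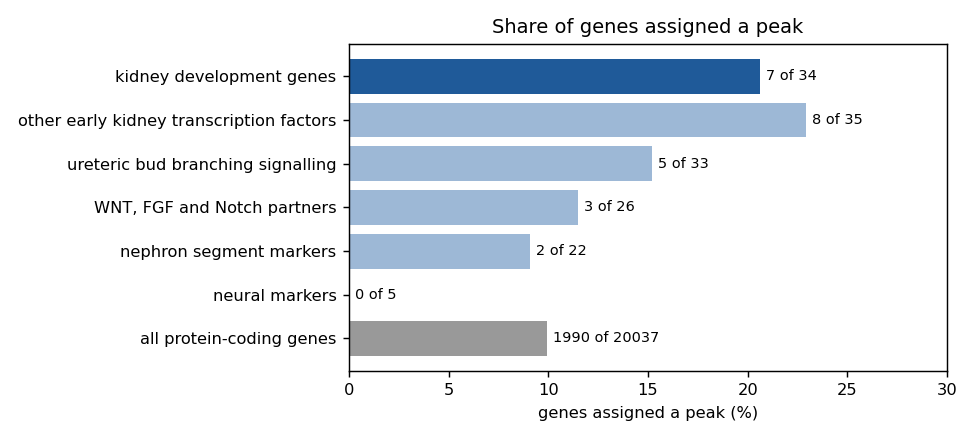
Percent of genes assigned a peak in the kidney development set (dark blue), in 5 companion lists (light blue) and among all protein-coding genes (grey), with counts beside the bars. The kidney set reached 20.6% and the other early factors 22.9%, against 9.93% for all protein-coding genes, and the segment markers 9.09%.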

How the data were processed

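Per the labels' protocols, HEK293T chromatin was fixed with formaldehyde, cut with micrococcal nuclease and sonication, and precipitated through the AM tag. Of tools, the submitters' processing notes list MACS2 2.1.1.20160309.6, Bowtie2 2.4.2, HOMER 4.10, ChIPseeker 1.18.0 and deepTools, with the hg38 build and no role for any. The table of peaks was taken to be that of the wild-type library from its name alone, since the record links it to no sample. It has no header, so each column was recognised by what it holds. The deposited fold enrichment is a ratio of fragments to background. The deposited −log10 values of p and q are the peak caller's (a −log10 p-value and −log10 q-value), and the deposited score is the whole part of 10 times the latter. All are the authors' values and served to describe, rank and filter peaks.

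Fragments were recovered as the whole number n and background b for which (n + 1)/(b + 1) gave the fold and the Poisson tail the −log10 p within 0.001. This gave 1 solution at 3459 of 3462 peaks, with a median of 18 fragments. The number is the count behind the fold and p-value, and no fragments were counted over the width of a peak. Of 500 peaks simulated with the same formula 100% were recovered, which checks the arithmetic and not whether the peak caller used that formula. The sources used here give no library totals. Gene spans and promoters came from RefSeq GRCh38.p14, to which 2249 of 2286 symbols matched. The kidney genes, companion lists and rules were chosen with earlier results of these data known, so no list was tested. Named genes were every member, and up to 4 companions per list by fold; some genes that this rule takes are not reported here. There were 0 value columns without a group. Python 3.11.15, pandas 2.3.3, numpy 2.4.6, scipy 1.17.1 and matplotlib 3.10.9 were used.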

Additional observations from a re-analysis of the deposited data

How the results depend on the processing

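Genes assigned a peak numbered 7 of 34, and 3 at a q of at most 1e-05 (IRX3, TBX18 and TFAP2A), 2 among peaks at or above the median fold (PAX8 and TFAP2A) and 3 with peaks across the start only. Peaks across a start numbered 3, and 1 at the stricter q, 0 at or above the median fold and 5 by a distance of 1000 bp. Genes with a peak in the widened span fell from 7 to 4 at the stricter q. Genes with a peak over the promoter window fell from 2 to 1 with an overlap of 100 bp and to 0 at the stricter q. The shares of all protein-coding genes at these stricter span and window settings are not given, so these counts have no background. Companion genes with a peak fell from 18 to 7 of 121 at either the stricter q or the higher folds. The shares of protein-coding genes at these settings were 5.52% and 5.03%. A stricter q, higher folds or starts only keep fewer peaks by construction. The median fold was between 4.63 and 5.45, below the list median in each setting, and by −log10 q it was 4.51 beside 5.33. At the stricter q it rested on 3 peaks (4.72), and at the higher folds on 2 peaks picked by fold itself (5.45). The other alternatives left each count within 1.5 times its value. The settings with the RefSeq start (2 peaks) and without NOTCH2 (6 genes, median fold 4.72) were added after the data were seen. No paired analysis was possible because the single list came from 1 library. A median of 18 recovered fragments per peak limits any ranking of peaks.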

Other observations

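The sequence before LINC02966, chosen for this remark after it was seen, was built mostly of C and T on its own strand. These bases made up 83.6% of the 250, and 11 of 35116 RefSeq promoters (0.0313%) reached as high a share. Its G and C content was 67.2%, and the median of all promoters was 58.0%. The 250 bases before NOTCH2 held 43.2% C and T and 72.8% G and C.

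Over all 1564 promoter windows touched by a peak, 73.5% held GGGCGG and 27.8% CCGGAA, beside 45.0% and 17.2% of all windows, while AGATAA was in 4.67% and 10.3%. The EMX2 and NOTCH2 windows each held GGGCGG and lacked the other 2 sequences.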
